A study of Mus musculus with 64 samples.

Results

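The genes described here encode parts of the axoneme and of the sperm flagellum. They were chosen by symbol alone, as every row of the deposited mouse gene tables whose symbol begins with Dnahc, Dnaic, Tekt, Rsph, Odf or Spag followed by a digit. This rule took 46 of 26385 genes: 13 dynein heavy chains (Dnahc), 2 dynein intermediate chains (Dnaic), 5 tektins (Tekt), 7 radial spoke proteins (Rsph), 8 outer dense fibre proteins or relatives (Odf) and 11 sperm associated antigens (Spag). Their levels were followed in 47 RNA-Seq libraries, each from 1 mouse, of which 20 were made from sorted male germ cells and 27 from whole testis. Sorted germ cells came from Morc1tg/tg mice and Morc1tg/+ controls at E16.5 (2 and 2 libraries), E18.5 (2 and 2), P2.5 (2 and 3) and P10.5 (3 and 4). Testis of this line was taken whole at P10.5 from 3 Morc1tg/tg mice and from 3 controls (2 Morc1tg/+ and 1 Morc1+/+), and at P14.5 from 3 Morc1tg/tg and 3 Morc1tg/+ mice. Whole testis at P10.5 also came from 3 Dnmt3l-/-, 3 Dnmt3l+/- and 3 Dnmt3l+/+ mice and from 2 Miwi2-/- and 2 Miwi2+/- mice. Another pair of P10.5 testis libraries (1 Morc1tg/+ and 1 Morc1+/+) was labelled preliminary and entered only 1 alternative fit.

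The Morc1tg allele carries a tyrosinase transgene whose insertion into the gene removed several of its exons, on the FVB/N background. For the sort at E16.5, E18.5 and P2.5 it had been crossed to an Oct4-IRES-eGfp reporter, so those mice were of mixed background and their cells were taken by reporter fluorescence. At P10.5 the cells were taken instead by high EpCAM, absence of MHC I and low side scatter. MORC1 is a nuclear ATPase of the male germ line, DNMT3L is a cofactor of de novo DNA methyltransferases, and MIWI2 (gene symbol Piwil4) is a Piwi protein of the fetal piRNA pathway. Loss of any of these proteins is known to stop male germ cells in meiosis.

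An axoneme is a ring of doublet microtubules around a central pair. Dynein arms, built from heavy, intermediate and light chains, slide neighbouring doublets against each other, while radial spokes and the central apparatus set the beat and tektins form filaments within the doublet wall. In sperm the axoneme is wrapped by outer dense fibres. In the testis most of these genes are known to be transcribed from the pachytene stage of meiosis onwards, and many are shared with the motile cilia of efferent ducts, airways and brain ventricles. Some symbols are broader than the axoneme: Spag5 encodes a mitotic spindle protein, Spag9 a scaffold of stress kinases, Spag11a and Spag11b epididymal defensins, and Odf2 a centriolar as well as a sperm tail protein.

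Not all members were expressed. Spag11a had 1 read in all 47 libraries and Spag11b 77 reads in 6 libraries, and neither could be followed. The outer dense fibre genes Odf3l2 (71 reads in all libraries), Odf3l1 (95), Odf3 (174), Odf3b (240) and Odf1 (285) and the tektin genes Tekt3 (190) and Tekt4 (247) were close to the limit of detection. Only reads with a unique location were kept, so reads shared between paralogs were dropped. This may understate Rsph3a and Rsph3b, which are near copies, Dnahc7b, and Spag6, which is known as Spag6l in the current annotation. Levels are given as RPKM, the deposited reads on a gene scaled to its exon length and to the mapped reads of the library, and changes as log2 fold changes of raw counts with edgeR, with the standard error after ± (adjusted p over all genes tested, threshold 0.05). Shares of all genes that passed the same edgeR threshold are printed beside the counts of members. Counts at an unadjusted p, by DESeq2 and in most alternative fits have no such share beside them.

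Sorted libraries held from 2413679 to 14918478 reads on genes and whole testis libraries from 22509570 to 42137954, and the 46 genes took between 0.0517% and 0.137% of them. In the libraries labelled Morc1tg/tg, Morc1 itself lay below every control of the same stage and tissue, for example at 8.29 to 11.1 RPKM against 36.1 to 52.9 RPKM in E16.5 germ cells. Dnmt3l lay at 0.037 to 0.046 RPKM in Dnmt3l-/- testis against 0.374 to 1.02 RPKM in its controls. In the Miwi2 line the targeted gene went against its label. Piwil4 was higher in the libraries labelled Miwi2-/- (10.7 and 11.5 RPKM) than in those labelled Miwi2+/- (6.65 and 7.01 RPKM). Directions in this line rest on labels that this check did not bear out. The counts cover Piwil4 as a whole, and which part of it the allele removes was not examined here. The study reports some LINE elements and IAP-Ey transposons as derepressed in Miwi2-/- testis, which was not examined here either. In the Dnmt3l line, 4 of the 6 controls held Crisp1, an epididymal gene, at 4.60 to 34.3 RPKM, against 0.0443 RPKM or less in the other two and in the Dnmt3l-/- libraries. Sorted cells and whole testis were prepared with different kits (Ovation FFPE with depletion of ribosomal RNA, and TruSeq v2), so tissue and kit cannot be told apart and their levels are only set side by side.

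Promoter sequence was taken from RefSeq (build GRCm38.p6), as 250 bases before to 50 bases after each annotated start, and 37 of the 46 genes matched 46 such promoters. The 9 without a match were Dnahc3, Odf1, Odf3l2, Rsph1, Rsph10b2, Rsph4a, Spag1, Spag11a and Spag11b. Letters of 3 motifs were searched on both strands, and their matches do not overlap in the promoters shown: the RFX site GTTGCC, the A-MYB core GGCAGTT and the cAMP response element TGACGTCA. RFX factors drive ciliary genes, A-MYB drives pachytene genes and CREM, which reads the last motif, drives spermatid genes. GTTGCC was found in 14 of the 46 promoters (30.4%) and in 12.5% of all 32851 promoters, GGCAGTT in 6 (13.0%) against 4.12%, and TGACGTCA in 3 (6.52%) against 1.79%. Promoters of the same gene can overlap and hold the same match. By gene, GTTGCC was found in 12 of the 37 matched genes, GGCAGTT in 6 and TGACGTCA in 3. A match describes these letters only. The promoters of Odf4 (chr11:68927032-68927331, minus strand), Spag17 (chr3:99885167-99885466, plus), Spag6 (chr16:16829314-16829613, minus), Tekt4 (chr17:25471340-25471639, plus), Tekt1 (chr11:72361833-72362132, minus), Dnaic1 (chr4:41569544-41569843, plus) and Dnahc12 (chr14:26691304-26691603, plus) are printed because these 7 genes had the lowest log2 fold changes in P14.5 Morc1tg/tg testis among members with a promoter in the table, with matched motifs in capitals. Odf4 holds GGCAGTT, Spag6 holds TGACGTCA and GTTGCC, and Tekt4 holds GTTGCC and 2 matches of GGCAGTT. Tekt1, of whose 2 listed promoters the first is shown, holds GTTGCC on both strands, and Dnahc12 holds GGCAGTT on both strands. Spag17 and Dnaic1 hold none of the 3.
Odf4: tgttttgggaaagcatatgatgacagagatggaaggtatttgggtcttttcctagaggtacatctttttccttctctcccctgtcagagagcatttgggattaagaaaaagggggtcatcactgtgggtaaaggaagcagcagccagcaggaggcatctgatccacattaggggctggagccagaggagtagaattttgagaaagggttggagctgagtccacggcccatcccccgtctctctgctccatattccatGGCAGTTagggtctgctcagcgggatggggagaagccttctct
Spag17: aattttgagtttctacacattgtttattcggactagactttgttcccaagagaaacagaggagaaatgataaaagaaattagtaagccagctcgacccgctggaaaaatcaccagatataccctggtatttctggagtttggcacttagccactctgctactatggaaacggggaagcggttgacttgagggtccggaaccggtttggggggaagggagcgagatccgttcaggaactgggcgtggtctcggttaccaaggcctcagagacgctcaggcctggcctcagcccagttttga
Spag6: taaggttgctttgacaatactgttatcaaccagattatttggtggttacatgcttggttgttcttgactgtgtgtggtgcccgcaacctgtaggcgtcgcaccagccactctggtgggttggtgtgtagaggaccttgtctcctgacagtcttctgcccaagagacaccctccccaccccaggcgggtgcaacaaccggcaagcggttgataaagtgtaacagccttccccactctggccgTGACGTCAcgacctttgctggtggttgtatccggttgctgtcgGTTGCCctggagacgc
Tekt4: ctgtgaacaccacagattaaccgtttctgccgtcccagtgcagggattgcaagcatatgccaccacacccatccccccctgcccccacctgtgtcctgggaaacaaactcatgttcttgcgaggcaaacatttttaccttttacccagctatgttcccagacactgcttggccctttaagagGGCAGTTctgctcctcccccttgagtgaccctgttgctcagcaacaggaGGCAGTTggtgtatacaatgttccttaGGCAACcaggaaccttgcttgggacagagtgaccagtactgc
Tekt1: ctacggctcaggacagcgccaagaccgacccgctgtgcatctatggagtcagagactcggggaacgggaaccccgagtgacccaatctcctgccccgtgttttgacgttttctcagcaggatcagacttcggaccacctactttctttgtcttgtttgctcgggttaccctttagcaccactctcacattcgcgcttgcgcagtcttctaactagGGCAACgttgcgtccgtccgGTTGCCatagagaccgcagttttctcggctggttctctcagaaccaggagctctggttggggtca
Dnaic1: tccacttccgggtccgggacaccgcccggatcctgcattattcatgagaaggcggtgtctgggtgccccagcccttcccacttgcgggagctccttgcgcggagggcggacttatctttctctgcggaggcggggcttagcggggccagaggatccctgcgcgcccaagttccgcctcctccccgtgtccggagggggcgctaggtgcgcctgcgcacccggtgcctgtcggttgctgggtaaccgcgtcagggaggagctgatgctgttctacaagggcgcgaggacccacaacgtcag
Dnahc12: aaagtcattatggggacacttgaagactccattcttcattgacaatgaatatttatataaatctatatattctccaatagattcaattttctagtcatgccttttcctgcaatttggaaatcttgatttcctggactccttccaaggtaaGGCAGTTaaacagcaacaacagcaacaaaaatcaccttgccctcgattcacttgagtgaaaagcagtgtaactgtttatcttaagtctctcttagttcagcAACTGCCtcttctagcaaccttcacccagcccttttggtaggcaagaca

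In control germ cells, many axoneme transcripts were present before birth and dropped around birth. Of 34 members that reached a mean of 1 RPKM at some stage in Morc1tg/+ germ cells, 9 had their highest mean at E16.5, 14 at E18.5, 6 at P2.5 and 5 at P10.5. This count was not made over all genes, so it does not set the members apart from other genes. It rests on mean RPKM without a test, and the E16.5 and E18.5 means come from 2 libraries each. From E18.5 to P2.5, 17 of 40 tested members fell (21% of all genes tested) and 2 rose (18.1% of all genes), and the median change of the members was -0.94 on the log2 scale against -0.07 over all genes. From E16.5 to E18.5, 3 of 40 rose (8.13% of all genes) and 1 fell (10.53%), and the medians were 0.06 and -0.07. From P2.5 to P10.5, where the method of sorting also changed, 5 of 40 rose (13.4% of all genes) and 6 fell (14.2%), and the medians were 0.00 and 0.02. DESeq2 gave 2 rises and 17 falls, 3 rises and 1 fall, and 5 rises and 8 falls in these comparisons. Neighbouring steps share the libraries of their common stage. Single libraries decided some of the smaller counts. From E16.5 to E18.5, 0 members fell without replicate 2 of E16.5, 3 without replicate 1 of E18.5 and 2 without its replicate 2. From P2.5 to P10.5 only 2 rose without replicate 1 or 2 of P2.5 or replicate 4 of P10.5 and 3 without replicate 1, 2 or 3 of P10.5. The losses were among Dnahc2, Dnahc17 and Odf2.

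Among the dynein heavy chains, 9 of 13 fell from E18.5 to P2.5. Dnahc12, an inner arm chain, lay at 3.51 and 2.91 RPKM in the E16.5 controls, at 3.76 and 5.32 at E18.5, at 0.607, 0.254 and 0.347 at P2.5 and at 0.173, 0.300, 0.407 and 0.352 at P10.5. Every postnatal library lay below every fetal library, and the fall around birth was large (log2 fold change -3.78 ± 0.44 SE, edgeR adjusted p = 8.4e-06). Dnahc5, an outer arm chain, stood at 1.58 and 1.83 RPKM at E16.5 and 2.42 and 2.45 at E18.5, then at 0.600, 0.511 and 0.400 at P2.5 and 0.135, 0.205, 0.103 and 0.153 at P10.5. It fell at both postnatal steps without overlap, with log2 fold changes of -2.47 ± 0.31 (edgeR adjusted p = 1.8e-05) and -1.45 ± 0.28 (adjusted p = 0.0012). The inner arm chain Dnahc6 was at 1.20 and 1.49 RPKM at E18.5, 0.442, 0.226 and 0.340 at P2.5 and 0.0669, 0.131, 0.0980 and 0.0474 at P10.5. Dnahc2, another inner arm chain, was at 2.64 and 2.07, 0.441, 1.04 and 1.45 and 1.22, 1.49, 1.42 and 1.68 RPKM at these stages. Both fell around birth, with a log2 fold change of -2.23 ± 0.43 for Dnahc6 (edgeR adjusted p = 0.00083) and of -1.42 ± 0.32 for Dnahc2 (0.0024). After P2.5 they parted, since Dnahc6 fell further (-1.63 ± 0.40, adjusted p = 0.0061) and Dnahc2 rose with overlapping libraries (0.83 ± 0.27, 0.033). The rise of Dnahc2 was lost without replicate 1 or 2 of P2.5 or replicate 2, 3 or 4 of P10.5. Dnahc8 and Dnahc17, the outer arm chains of the sperm type, moved in opposite directions at the last step. Dnahc8 fell from 9.73, 7.04 and 6.66 RPKM to 4.57, 4.19, 3.92 and 4.26 RPKM (log2 fold change -0.60 ± 0.14 SE, edgeR adjusted p = 0.0043). Dnahc17 rose from 0.0747, 0.112 and 0.275 RPKM to 0.573, 0.332, 0.377 and 0.432 RPKM (log2 fold change 1.72 ± 0.52 SE, edgeR adjusted p = 0.022). Its rise was lost without replicate 1 or 2 of P2.5 or replicate 1 or 4 of P10.5.

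Both intermediate chains of the outer arm fell at birth. Dnaic1 was at 5.85 and 7.50 RPKM at E16.5, 6.95 and 6.92 in E18.5 cells, 1.96, 0.473 and 1.46 at P2.5 and 0.820, 1.04, 0.693 and 0.958 at P10.5. Dnaic2 was at 4.26 and 3.46, 6.73 and 3.71, 0.0777, 0.617 and 1.04 and 0.420, 0.423, 0.215 and 0.510 RPKM at the same stages. In neither gene did the fetal and the P2.5 libraries overlap (log2 fold change -2.67 ± 0.48 SE, edgeR adjusted p = 0.00042 and log2 fold change -3.24 ± 0.62 SE, edgeR adjusted p = 0.0008).

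The tektins followed separate courses. Tekt1, the most abundant of them in fetal cells, lay at 34.6 and 43.8 RPKM at E16.5, 13.0 and 15.2 in E18.5 cells, 2.78, 1.57 and 3.81 at P2.5 and 0.919, 1.18, 0.814 and 1.38 at P10.5. Its libraries did not overlap between any neighbouring stages, and it fell at all 3 steps, with log2 fold changes of -1.44 ± 0.34 (edgeR adjusted p = 0.0074), -2.59 ± 0.34 (2.6e-05) and -1.03 ± 0.32 (0.024). The first of these falls was lost when replicate 2 of the E16.5 controls was left out. Tekt5 stood at 3.00 and 3.10 RPKM at E16.5 and 4.44 and 4.90 at E18.5. It was at 0.619, 0.273 and 0 RPKM at P2.5 (log2 fold change -4.32 ± 1.03 SE, edgeR adjusted p = 0.0038) and stayed low at P10.5 (0.234, 0.551, 0.412 and 0.111 RPKM). Tekt2, by contrast, was measured at every stage, at 3.28 and 3.15, 2.85 and 3.89, 4.79, 1.28 and 4.13 and 2.12, 3.48, 3.26 and 3.64 RPKM in order of stage, and passed no test between stages. Tekt3 was at 1.10 and 0.513 RPKM at E16.5 and 0.691 and 0 at E18.5, and had no read in the P2.5 and P10.5 controls. Tekt4 was at 0.781 and 0.380 RPKM at E16.5, at 0 in both E18.5 controls and all P2.5 controls, and at 0.0787, 0, 0.202 and 0 RPKM at P10.5.

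Rsph1, a protein of the radial spoke head, was the most abundant member of all in fetal control germ cells. It lay at 38.0 and 47.9 RPKM at E16.5, 40.6 and 28.9 in E18.5 cells, 22.3, 10.4 and 18.7 at P2.5 and only 1.82, 2.33, 2.77 and 1.55 at P10.5. The fall from P2.5 to P10.5 was the larger one, without overlap (log2 fold change -2.70 ± 0.27 SE, edgeR adjusted p = 3.9e-06), after a log2 fold change of -1.21 ± 0.29 around birth (edgeR adjusted p = 0.004). None of the other spoke genes changed around birth in a way that passed the test.

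Among the antigens, Spag6, a protein of the central apparatus, was at 4.40 and 6.90 RPKM at E16.5, 7.75 and 18.4 in E18.5 cells, 0.555, 0.571 and 1.28 at P2.5 and 0.924, 1.78, 0.923 and 2.56 at P10.5. Its fall around birth was the steepest of the antigens and without overlap (log2 fold change -4.22 ± 0.56 SE, edgeR adjusted p = 3.1e-05). Spag16, which sits in the same structure, rose before birth from 0.570 and 0.855 to 1.65 and 4.38 RPKM (log2 fold change 2.17 ± 0.70 SE, edgeR adjusted p = 0.041). Some members rose at 1 or more of these steps. Spag9 was at 2.91 and 3.09 RPKM at E16.5, 7.16 and 7.16 in E18.5 cells, 3.41, 5.10 and 4.05 at P2.5 and 9.69, 7.96, 9.04 and 8.57 at P10.5. It rose before birth (1.28 ± 0.20, edgeR adjusted p = 0.00025), fell around birth (-0.95 ± 0.18, 0.0006) and rose again (1.34 ± 0.15, 1.2e-05). Odf2 was at 4.64 and 5.93 RPKM at E16.5, 11.6 and 8.15 in E18.5 cells, 12.6, 15.4 and 17.6 at P2.5 and 17.4, 15.0, 16.53 and 16.2 at P10.5. It rose before birth, with a log2 fold change of 0.91 ± 0.17 (edgeR adjusted p = 0.0012). Its next rise, of 0.45 ± 0.15 (edgeR adjusted p = 0.031), was lost without the filter on low counts and without replicate 2 of P2.5. The last, of 0.38 ± 0.13 (edgeR adjusted p = 0.033), had overlapping libraries and was lost with RLE factors, without that filter, and without replicate 1 or 2 of P2.5 or any 1 of the P10.5 controls. Spag5 rose around birth without overlap, from 5.37 and 4.19 to 9.73, 10.3 and 10.49 RPKM (log2 fold change 0.92 ± 0.18 SE, edgeR adjusted p = 0.00098). Spag1, a factor of dynein assembly, fell from 8.40 and 6.55 to 4.80, 4.83 and 3.93 RPKM (log2 fold change -0.90 ± 0.21 SE, edgeR adjusted p = 0.0034). It rose again to 8.28, 6.80, 6.24 and 7.11 RPKM at P10.5 (log2 fold change 0.93 ± 0.18 SE, edgeR adjusted p = 0.0012).

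**Figure D1:**
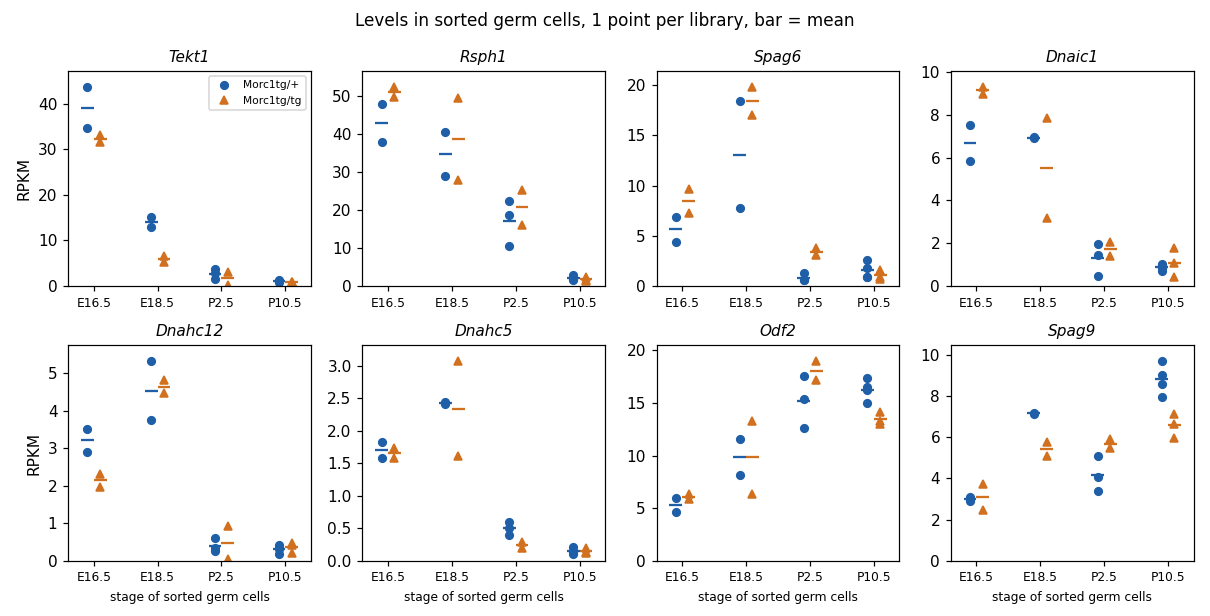
RPKM of 8 members (vertical axes) in sorted germ cells by stage (horizontal axes), with 1 point per library for Morc1tg/+ (circles) and Morc1tg/tg (triangles) and a bar at each group mean. Tekt1, Rsph1, Dnaic1, Dnahc12 and Dnahc5 are low at P10.5 in every library of either genotype, whereas Odf2 and Spag9 are higher at P10.5 than at E16.5.

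By P10.5 the members of highest level in control germ cells were Spag7, Odf2, Spag5, Spag9 and Spag1. Spag7, an R3H domain protein, stood at 25.6, 20.3, 22.6 and 18.8 RPKM, Odf2 at 17.4, 15.0, 16.53 and 16.2 and Spag5 at 10.0, 10.1, 9.11 and 10.3, followed by the Spag9 and Spag1 levels given above. Spag7 and Odf2 did not overlap with each other or with the rest, whereas the ranges of Spag5 and Spag9 overlapped, as did those of Spag9 and Spag1. Odf2l and Rsph9, next by mean, overlapped with Spag1. Across all 46 genes, mean levels in E16.5 and P10.5 control germ cells had a Spearman rho of 0.76, a description over genes of libraries made with 1 kit.

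Markers of other ciliated cells moved with the same stages. The summed level of a list of multiciliated cell genes was 35.4 to 42.4 RPKM in control germ cells at E16.5, 16.1 to 44.0 at E18.5, 7.96 to 10.6 at P2.5 and 1.63 to 3.37 at P10.5. A list of efferent duct and epididymal genes, with Crisp1 among them, summed to 8.04 to 16.0 RPKM at E18.5 and 1.23 to 2.01 at P10.5. Its sums at E16.5 and P2.5 are not given here, so these values do not show its full course. Markers of Sertoli cells summed to between 12.1 and 41.0 RPKM in the sorted libraries and germ cell markers to between 373 and 909 RPKM. Foxj1, the transcription factor that defines multiciliated cells, did not follow its list, at 1.38 and 0.919 RPKM at E16.5, 1.03 and 0 in E18.5 cells, 5.26, 4.34 and 4.58 at P2.5 and 1.42, 1.28, 1.20 and 0.936 at P10.5. The part of ciliated cells in the fetal levels was not tested.

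Between Morc1tg/tg and Morc1tg/+ germ cells, few members differed before P10.5. At E16.5, 1 of 43 tested members was higher (0.385% of all genes tested) and 0 were lower with edgeR (0.0361% of all genes), with 5 and 4 at an unadjusted p under 0.05 and 1 and 0 by DESeq2. The member was Dnahc7b, an inner arm heavy chain, which lay at 4.91 and 4.38 RPKM in Morc1tg/tg and 2.496 and 2.49 RPKM in Morc1tg/+ cells, without overlap (log2 fold change 0.81 ± 0.14 SE, edgeR adjusted p = 0.004). The call was lost in a single fit over all sorted libraries. At E18.5, 0 of 34 members passed edgeR in either direction (0.0416% of all genes were higher and 0% lower), with 2 and 2 at an unadjusted p under 0.05 and 1 and 0 by DESeq2. Dnahc7b again stood apart in its levels, at 5.27 and 7.04 RPKM in Morc1tg/tg and 1.31 and 1.54 RPKM in Morc1tg/+ cells. It did not pass the adjusted threshold in the main edgeR fit (log2 fold change 2.23 ± 0.35 SE, edgeR adjusted p = 0.088). It passed with DESeq2, without the filter on low counts, when replicate number was blocked, and in a single fit over all sorted libraries. With either E18.5 control left out it passed, in a fit that has 1 control library and takes the spread from the 2 Morc1tg/tg libraries alone. At P2.5, 0 of 36 members passed edgeR (0.0416% of all genes were higher and 0.00694% lower), with 2 higher and 3 lower at an unadjusted p under 0.05 and 0 by DESeq2. Without replicate 2 of Morc1tg/tg 1 member, Dnahc10, was lower, with 1 Morc1tg/tg library left and the spread taken from the controls. The median change of the members was -0.01 at E16.5, 0.05 at E18.5 and 0.00 at P2.5, against -0.01, 0.02 and -0.02 over all genes.

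At P10.5, 3 of 34 tested members were lower in Morc1tg/tg germ cells (5.79% of all genes tested) and 0 were higher with edgeR (6.43% of all genes), with 6 and 0 at an unadjusted p under 0.05 and 3 and 0 by DESeq2. The median change was -0.07, against 0.00 over all genes. Spag9 lay at 7.14, 5.98 and 6.64 RPKM in Morc1tg/tg and at 9.69, 7.96, 9.04 and 8.57 RPKM in Morc1tg/+ cells (log2 fold change -0.50 ± 0.10 SE, edgeR adjusted p = 0.00086). Dnahc17 lay at 0.166, 0.208 and 0.235 against 0.573, 0.332, 0.377 and 0.432 RPKM (log2 fold change -1.15 ± 0.25 SE, edgeR adjusted p = 0.0028). Odf2 lay at 14.2, 13.0 and 13.3 against 17.4, 15.0, 16.53 and 16.2 RPKM (log2 fold change -0.35 ± 0.09 SE, edgeR adjusted p = 0.0081). The groups did not overlap in any of these 3 genes, but none of them passed in a single fit over all sorted libraries. Leaving out replicate 3 of the controls added Dnahc10 and Spag4 to the lower members. Markers of germ cell stages moved in the same libraries. Those of undifferentiated spermatogonia summed to 152 to 183 RPKM in Morc1tg/tg and 115 to 124 RPKM in Morc1tg/+ cells, and those of differentiating spermatogonia to 91.3 to 108 against 134 to 162 RPKM. Early meiosis markers summed to 134 to 143 against 164 to 186 RPKM and pachytene markers to 33.6 to 40.8 against 43.1 to 46.6 RPKM. None of these 4 sums overlapped between the genotypes, and their part in the lower members was not tested. The tektins showed no called difference at any stage in sorted cells. In Morc1tg/tg cells Tekt1 was at 31.5 and 33.0 RPKM at E16.5, 6.55 and 5.23 in E18.5 cells, 0.164 and 3.16 at P2.5 and 0.791, 0.952 and 0.902 at P10.5. Tekt2 in these cells was at 2.41 and 4.30 RPKM at E16.5, 0 and 1.497 in E18.5 cells, 1.85 and 3.23 at P2.5 and 3.80, 3.58 and 2.03 at P10.5. Tekt5 was at 2.78 and 5.00 RPKM at E16.5, 5.24 and 2.10 in E18.5 cells, 0.526 and 0.270 at P2.5 and 0.141, 0.365 and 0.217 at P10.5. In E18.5 cells Tekt1 lay below both controls in both Morc1tg/tg libraries without passing the test (log2 fold change -1.17 ± 0.49 SE, edgeR adjusted p = 0.79). The same held for Tekt2 (log2 fold change -1.91 ± 1.76 SE, edgeR adjusted p = 0.96). Tekt3 was at most 1.13 RPKM and Tekt4 at most 1.23 RPKM in any Morc1tg/tg germ cell library, each with libraries at 0.

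In control whole testis, most axoneme genes rose between P10.5 and P14.5, the days in which the first germ cells reach pachytene. Of 37 tested members 26 were higher at P14.5 (29.6% of all genes tested) and 1 was lower (27.9% of all genes), the same counts as with DESeq2, and the median change was 0.90 against 0.01 over all genes. The rises took in 10 of 13 dynein heavy chains, 1 of 2 intermediate chains, 3 of 4 tested tektins, 2 of 6 spoke genes, 3 of 3 tested outer dense fibre genes and 7 of 9 antigens. The number of members with a mean of at least 1 RPKM went from 12 in P10.5 controls to 23 at P14.5, a count that was not made over all genes. In whole testis, more cells of a type and more RNA per cell cannot be told apart. All later comparisons of the Morc1 testis reuse these control libraries.

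Rsph1 rose most firmly, from 4.96, 4.83 and 5.30 RPKM (Morc1+/+, then Morc1tg/+, as in the sentences that follow) to 90.2, 62.5 and 120.0 RPKM (log2 fold change 4.18 ± 0.21 SE, edgeR adjusted p = 3.4e-09). Dnaic1 went from 0.346, 0.392 and 0.464 to 3.67, 2.58 and 3.93 RPKM (log2 fold change 3.08 ± 0.20 SE, edgeR adjusted p = 3.4e-08). All P14.5 libraries of both genes lay far above all P10.5 libraries. Rsph10b2, a further spoke head gene, went from 0.593, 0.448 and 0.551 to 2.96, 2.35 and 3.56 RPKM, a rise of 2.48 ± 0.20 on the log2 scale (edgeR adjusted p = 1.7e-07). Of the heavy chains, Dnahc12 went from 0.142, 0.0832 and 0.101 to 0.874, 0.822 and 1.06 RPKM (rise of 3.08 ± 0.21, adjusted p = 5.3e-08). The sperm outer arm chain Dnahc8 went from 1.15, 1.24 and 1.20 to 6.89, 4.83 and 9.43 RPKM (2.56 ± 0.22, 3.9e-07). Dnahc7b went from 0.704, 0.861 and 0.654 to 2.35, 1.98 and 3.26 RPKM (1.77 ± 0.17, 8.1e-07). No library of one age overlapped with the other in these 4 genes either.

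The steepest rises were those of Odf4 and Spag17, both near 0 at P10.5. Odf4, a protein of the sperm tail, had 3 reads in the 3 P10.5 controls and 420 in the 3 P14.5 controls, which is 0.0273, 0.0271 and 0.0311 against 4.77, 2.23 and 6.02 RPKM. The ratio of these reads per gene read was 151.8, with an exact 95% interval from 51.6 to 739.2 that covers counting error only (log2 fold change 7.08 ± 0.57 SE, edgeR adjusted p = 2.1e-07). Spag17, a protein of the central apparatus, went from 0.0236, 0.0390 and 0.0179 to 0.933, 0.460 and 1.46 RPKM (log2 fold change 5.10 ± 0.44 SE, edgeR adjusted p = 3.6e-07). Among the tektins, Tekt1 rose from 0.428, 0.445 and 0.608 to 4.66, 2.61 and 5.68 RPKM (log2 fold change 3.13 ± 0.29 SE, edgeR adjusted p = 7.5e-07). Tekt4 rose from 0.0404, 0.0600 and 0.0229 to 0.496, 0.250 and 0.624 RPKM (log2 fold change 3.35 ± 0.64 SE, edgeR adjusted p = 0.00044), and Tekt5 from 0.137, 0.0340 and 0.195 to 0.383, 0.319 and 0.449 RPKM (log2 fold change 1.66 ± 0.43 SE, edgeR adjusted p = 0.004). Tekt2, already at 2.05, 1.83 and 2.03 RPKM at P10.5, was at 2.38, 2.06 and 2.27 RPKM and did not pass the test (log2 fold change 0.18 ± 0.15 SE, edgeR adjusted p = 0.31). Tekt3 was at 0.0177, 0.0175 and 0.0402 and 0.119, 0.0731 and 0.168 RPKM and did not pass the filter on low counts. Without that filter it was called higher. The smallest of the named rises was that of Odf2l, a relative of Odf2 known from centrioles, from 7.08, 7.01 and 6.95 to 13.2, 11.2 and 14.2 RPKM (log2 fold change 0.88 ± 0.09 SE, edgeR adjusted p = 2.0e-06).

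Spag7 was the only member to fall with age, from 37.2, 34.6 and 36.5 to 27.6, 30.1 and 28.1 RPKM (log2 fold change -0.33 ± 0.06 SE, edgeR adjusted p = 0.00025). Spag9 stood at 31.1, 32.4 and 30.7 and 31.5, 33.1 and 33.0 RPKM (log2 fold change 0.05 ± 0.06 SE, edgeR adjusted p = 0.5). By level, Rsph1 led the members at P14.5, with Spag9, Odf2 (33.3, 28.9 and 34.1 RPKM), Spag7 and Spag5 (22.7, 19.2 and 23.4 RPKM) next. The libraries of Rsph1 did not overlap with the others, those of Spag9 and Odf2 overlapped, as did those of Odf2 and Spag7, and Spag5 lay below all of these.

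In Morc1tg/tg testis fewer of these genes rose with age. Of the same 37 members, 11 rose from P10.5 to P14.5 (20.6% of all genes) and 1 fell (23.3% of all genes), with a median change of 0.22 against 0.00 over all genes. Without replicate 2 or replicate 3 of the P10.5 Morc1tg/tg libraries only 6 or 7 rose, as Dnahc8, Dnahc11, Dnahc12, Dnahc17 and Odf2 were lost. The 1 fall was that of Spag7, and it was lost when replicate 3 of the P10.5 Morc1tg/+, replicate 1 of the P10.5 Morc1tg/tg, or replicate 1 or 3 of either P14.5 genotype was left out. No tektin rose in Morc1tg/tg testis (0 of 4 tested). Rsph1 went from 5.29, 5.00 and 5.48 to 11.9, 12.1 and 9.20 RPKM (log2 fold change 1.06 ± 0.21 SE, edgeR adjusted p = 0.0011), without overlap but far short of the controls. The difference between the ages in the Morc1 effect, tested as an interaction over the 12 libraries, was below 0 for 16 of 37 members (6.73% of all genes) and above 0 for 0 with edgeR (1.49% of all genes). There were 20 and 0 at an unadjusted p under 0.05 and 16 and 0 by DESeq2. The median of this difference was -0.66 against 0.00 over all genes. Odf4 (-7.57 ± 1.58, edgeR adjusted p = 0.0082), Spag17 (-5.47 ± 0.91, 0.0018), Spag6 (-4.02 ± 0.70, 0.0024), Rsph1 (-3.12 ± 0.29, 0.00011) and Tekt1 (-2.85 ± 0.49, 0.0022) had the largest differences among called members. Tekt4 (-3.31 ± 1.29, 0.14) did not pass.

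**Figure D2:**
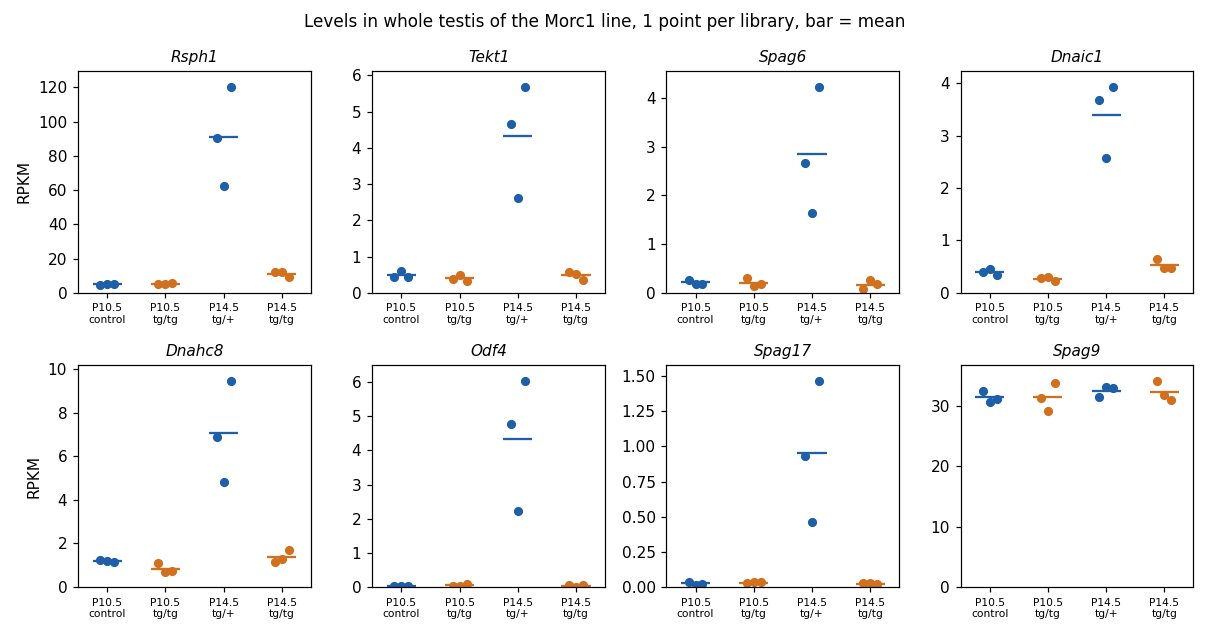
RPKM of 8 members (vertical axes) in P10.5 and P14.5 whole testis of the Morc1 line, with 1 point per library and a bar at each group mean, for controls (blue) and Morc1tg/tg (orange). In 7 of the panels the 3 Morc1tg/+ libraries at P14.5 lie above all others, while Spag9 lies at a like level in all groups.

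At P14.5, axoneme genes as a group were low in Morc1tg/tg testis. Of 35 tested members 27 were lower than in Morc1tg/+ (20.1% of all genes tested) and 1 was higher (14.8% of all genes), DESeq2 called 25 and 1, and the median change was -1.07 against 0.01 over all genes. The groups did not overlap in 30 members that were lower (28.3% of all genes) and 2 that were higher (21% of all genes). By family, 10 of 12 heavy chains, 1 of 2 intermediate chains, 3 of 4 tektins, 4 of 5 spoke genes, 3 of 3 outer dense fibre genes and 6 of 9 antigens were lower. In this order the median changes were -1.13, -1.20, -2.20, -0.78, -0.82 and -1.07. The summed level of all 46 genes was 229.7 to 323 RPKM in the Morc1tg/+ libraries and 135 to 145 RPKM in the Morc1tg/tg libraries, close to the 134 to 137 RPKM of P10.5 controls. This sum is weighted towards the most abundant members, Rsph1, Spag9, Odf2, Spag7 and Spag5, of which Rsph1 differed most between the genotypes. Replicate 2 of the Morc1tg/+ libraries was the lowest control for most of these members.

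The losses among dynein arm genes ranged widely. Dnahc12 lay at 0.140, 0.166 and 0.142 RPKM in Morc1tg/tg testis against the 0.874, 0.822 and 1.06 RPKM of the controls (log2 fold change -2.61 ± 0.19 SE, edgeR adjusted p = 7.7e-05). Dnahc8 was at 1.14, 1.30 and 1.72 RPKM against 6.89, 4.83 and 9.43 (log2 fold change -2.34 ± 0.25 SE, edgeR adjusted p = 0.00029). Dnaic1 was at 0.646, 0.465 and 0.473 against 3.67, 2.58 and 3.93 RPKM (log2 fold change -2.67 ± 0.22 SE, edgeR adjusted p = 0.00012). The mutant libraries of all 3 genes lay near or above the levels of P10.5 controls and above every P10.5 Morc1tg/tg library. Further falls were measured for Dnahc17 (-2.20 on the log2 scale), Dnahc1 (-1.95), Dnahc6 (-1.68), Dnahc7b (-1.43), Dnahc14 (-0.84), Dnahc2 (-0.73), Dnahc5 (-0.69) and Dnahc10 (-0.66). With DESeq2 the fall of Dnahc5 did not pass. Dnahc9 (log2 fold change -0.12 ± 0.20 SE, edgeR adjusted p = 0.68) and Dnahc11 (log2 fold change 0.48 ± 0.23 SE, edgeR adjusted p = 0.14), outer arm chains of motile cilia, and Dnaic2 (log2 fold change 0.26 ± 0.26 SE, edgeR adjusted p = 0.46) did not pass the test.

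Of the tektins, Tekt1 was at 0.582, 0.512 and 0.343 RPKM in Morc1tg/tg and 4.66, 2.61 and 5.68 in Morc1tg/+ testis (log2 fold change -3.15 ± 0.34 SE, edgeR adjusted p = 0.00031). Tekt4 was at 0.0439, 0 and 0.0995 against 0.496, 0.250 and 0.624 RPKM (log2 fold change -3.20 ± 0.66 SE, edgeR adjusted p = 0.0064). Tekt5 was at 0.131, 0.117 and 0.233 against 0.383, 0.319 and 0.449 RPKM (log2 fold change -1.25 ± 0.33 SE, edgeR adjusted p = 0.02). The groups did not overlap in any of the 3, though Tekt5 did not pass with DESeq2. Tekt2 was at 1.62, 1.72 and 1.56 against 2.38, 2.06 and 2.27 RPKM, also without overlap, and missed the threshold by little (log2 fold change -0.44 ± 0.15 SE, edgeR adjusted p = 0.05). Tekt3, at 0.0385, 0.0202 and 0.0218 against 0.119, 0.0731 and 0.168 RPKM, did not pass the filter on low counts. Without that filter it was called lower.

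The spoke head gene Rsph1 lay at 11.9, 12.1 and 9.20 RPKM against 90.2, 62.5 and 120.0 RPKM, an 8.18-fold difference (log2 fold change -3.03 ± 0.24 SE, edgeR adjusted p = 0.0001). Rsph10b2 was at 1.18, 0.921 and 0.943 against 2.96, 2.35 and 3.56 RPKM (log2 fold change -1.53 ± 0.19, edgeR adjusted p = 0.00058), and Rsph3b and Rsph9 fell, with log2 fold changes of -0.78 ± 0.23 and -0.43 ± 0.14, though Rsph9 did not pass with DESeq2. The outer dense fibre gene Odf4 kept 4 reads in the 3 Morc1tg/tg libraries against 420 in the controls (0.0595, 0 and 0.0674 against 4.77, 2.23 and 6.02 RPKM). The controls were 100.5 times higher per gene read, with an exact 95% interval from 38.95 to 370.4 that covers counting error only (log2 fold change -6.56 ± 0.64 SE, edgeR adjusted p = 0.00021). Odf2l was at 7.14, 7.31 and 7.28 against 13.2, 11.2 and 14.2 RPKM (log2 fold change -0.82 ± 0.10 SE, edgeR adjusted p = 0.00055). Odf2 was at 25.1, 23.6 and 23.2 against 33.3, 28.9 and 34.1 RPKM (log2 fold change -0.41 ± 0.08 SE, edgeR adjusted p = 0.0036). The losses thus ran from under 1.5-fold in Odf2 to nearly complete in Odf4.

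Among the antigens, the central apparatus genes Spag17 and Spag6 were almost lost. Spag17 was at 0.0257, 0.0269 and 0.0194 RPKM against 0.933, 0.460 and 1.46 RPKM (log2 fold change -5.26 ± 0.54 SE, edgeR adjusted p = 0.00025). Spag6 was at 0.0697, 0.262 and 0.174 against 2.66, 1.64 and 4.22 RPKM (log2 fold change -4.06 ± 0.48 SE, edgeR adjusted p = 0.00045). Spag16, the other member of this structure, was also lower, with a log2 fold change of -1.03 ± 0.26 (edgeR adjusted p = 0.015). The spindle gene Spag5 was at 11.6, 9.15 and 9.51 against 22.7, 19.2 and 23.4 RPKM (log2 fold change -1.10 ± 0.11 SE, edgeR adjusted p = 0.00019). Spag7 was the 1 member that was higher, at 32.6, 35.0 and 32.5 against 27.6, 30.1 and 28.1 RPKM (log2 fold change 0.23 ± 0.07 SE, edgeR adjusted p = 0.029). This call was lost when replicate 2 or 3 of Morc1tg/tg or replicate 1 or 3 of Morc1tg/+ was left out. Spag9, at 34.1, 31.9 and 31.0 against 31.5, 33.1 and 33.0 RPKM, had overlapping groups (log2 fold change -0.00 ± 0.05 SE, edgeR adjusted p = 0.99).

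The cell markers of the same libraries moved with these losses. Markers of germ cells summed to 319 to 365 RPKM in Morc1tg/tg and 791 to 1037 RPKM in Morc1tg/+ testis at P14.5. Those of early meiosis summed to 110 to 129 against 395 to 559 RPKM and those of pachytene spermatocytes to 38.6 to 43.7 against 192 to 389 RPKM. Sertoli cell markers were at 701 to 855 RPKM against 548 to 619 RPKM, and round spermatid markers at 1.82 to 1.91 against 3.43 to 4.17 RPKM. Their part in the lower axoneme levels was not tested. Replicate 2 of Morc1tg/+, lowest for the axoneme genes, was also the lowest control for the pachytene list, at 192 RPKM.

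**Figure D3:**
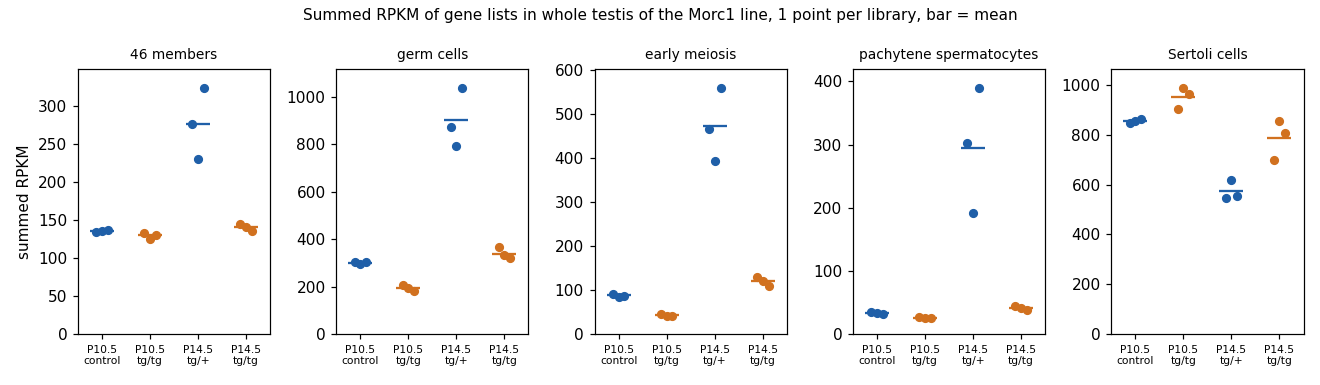
Summed RPKM (vertical axes) of the 46 axoneme and flagellum genes and of marker lists of germ cells, early meiosis, pachytene spermatocytes and Sertoli cells in whole testis of the Morc1 line, with 1 point per library and a bar at each group mean. At P14.5 the 46 genes and the 3 germ line lists are lower in Morc1tg/tg than in Morc1tg/+ libraries, and the Sertoli list is higher.

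Of the 27 members lower in P14.5 Morc1tg/tg testis, 11 were also among the 17 that fell around birth in control germ cells, which came from other libraries: Dnahc2, Dnahc5, Dnahc6, Dnahc7b, Dnahc10, Dnahc12, Dnaic1, Rsph1, Spag6, Tekt1 and Tekt5. They were 40.7% of the first set and 64.7% of the second. Of the 25 in the first set that were tested around birth they made 44%, near the 42.5% (17 of 40) of all members tested there. Of the 16 in the second set that were tested at P14.5 they made 68.8%, below the 77.1% (27 of 35) of all members tested there. Mean levels of the 46 genes in P14.5 control testis had a Spearman rho of 0.67 with those of E16.5 control germ cells and of 0.84 with those of P10.5 control germ cells, a description over genes measured with different kits.

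At P10.5, few members differed between Morc1tg/tg whole testis and its controls. Of 33 tested members 4 were lower (9.26% of all genes tested) and 0 were higher with edgeR (6.08% of all genes), with 8 and 1 at an unadjusted p under 0.05 and 4 and 0 by DESeq2. The median change was -0.16 against 0.01 over all genes. Spag4, a protein of the spermatid nuclear envelope, was at 0.325, 0.345 and 0.285 RPKM in Morc1tg/tg and 0.769, 0.652 and 0.820 RPKM in control testis (log2 fold change -1.22 ± 0.16 SE, edgeR adjusted p = 0.00078). Spag5 was at 8.39, 8.24 and 8.91 against 12.8, 10.6 and 11.9 RPKM (log2 fold change -0.45 ± 0.07 SE, edgeR adjusted p = 0.0023). Both genes were lower in all mutant libraries, as was Dnahc10, an inner arm chain, at 0.224, 0.172 and 0.158 against 0.282, 0.286 and 0.323 RPKM (log2 fold change -0.69 ± 0.15 SE, edgeR adjusted p = 0.011). Dnahc8, at 1.09, 0.703 and 0.730 against 1.15, 1.24 and 1.20 RPKM, completed the list (log2 fold change -0.51 ± 0.14 SE, edgeR adjusted p = 0.033). Without replicate 3 of Morc1tg/tg or replicate 3 of Morc1tg/+, Dnahc10 and Dnahc8 no longer passed and 2 members remained. Dnahc8 was also lost with Morc1tg/+ controls alone and when replicate number was blocked. Without replicate 2 of Morc1tg/+ 1 member, Dnahc7b, was higher. Tektin levels were 0.390, 0.488 and 0.320 RPKM for Tekt1, 1.47, 1.13 and 1.61 for Tekt2, 0.0202, 0 and 0.0265 for Tekt3, 0.0920, 0 and 0.0453 for Tekt4 and 0.0195, 0.0711 and 0.0770 for Tekt5 in Morc1tg/tg testis, with control levels as given above. Only Tekt2 had all mutant libraries below the controls (log2 fold change -0.46 ± 0.16 SE, edgeR adjusted p = 0.069). Germ cell markers summed to 181 to 205 RPKM in these mutants and 297 to 305 RPKM in controls, and early meiosis markers to 40.3 to 46.3 against 85.2 to 90.9 RPKM. Sertoli markers summed to 906 to 988 against 847 to 865 RPKM. Their part was not tested.

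**Figure D4:**
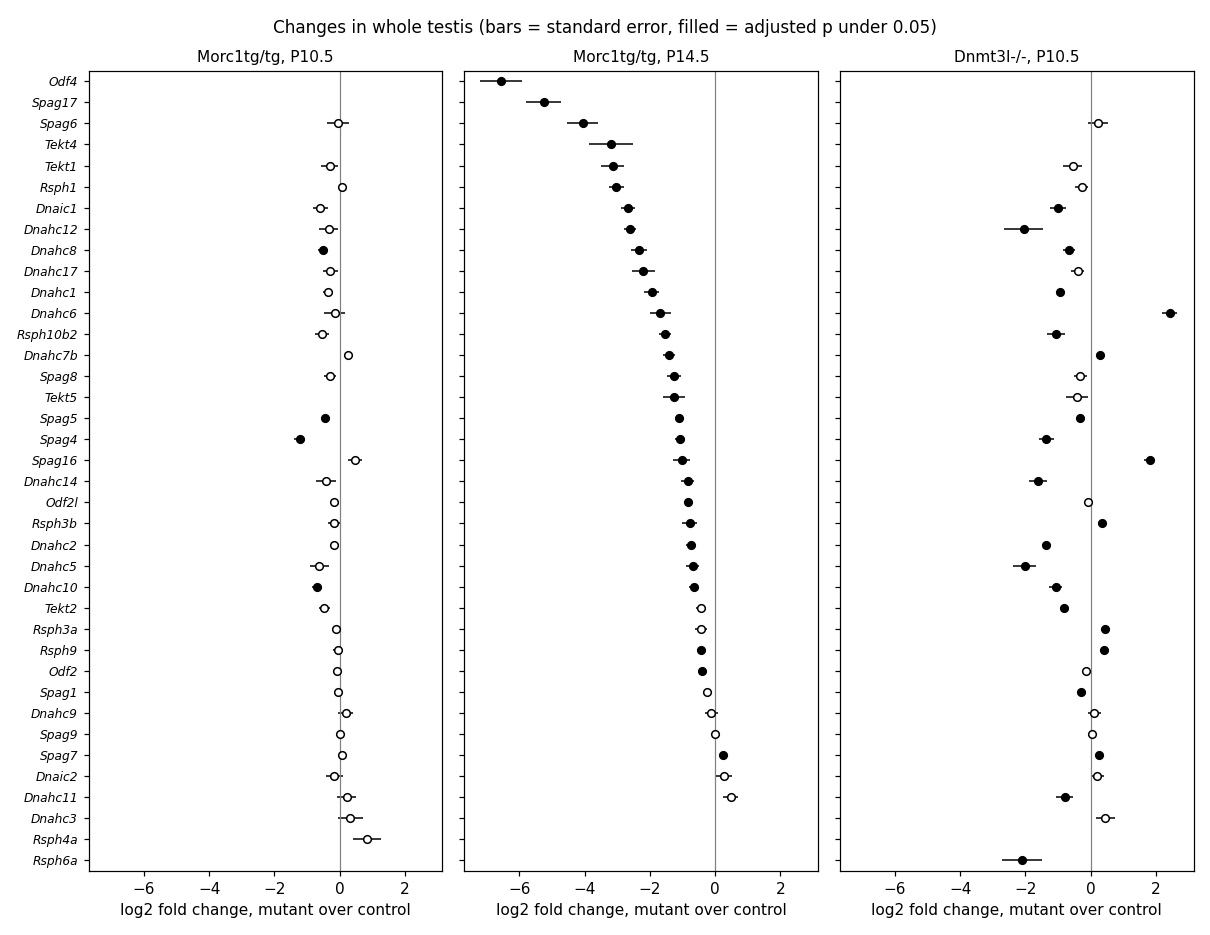
Log2 fold changes of mutant over control (horizontal axes) of 38 members (vertical axis) in whole testis of Morc1tg/tg at P10.5, Morc1tg/tg at P14.5 and Dnmt3l-/- at P10.5. Points are edgeR estimates, bars standard errors, and filled points have an adjusted p under 0.05. At P14.5 the filled points lie left of 0 except Spag7, while in Dnmt3l-/- testis 7 lie right and 15 left.

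In Dnmt3l-/- testis at P10.5, axoneme genes changed both ways. Of 34 tested members 15 were lower (29% of all genes tested) and 7 were higher (24.9% of all genes) than in the 6 controls, DESeq2 gave the same counts, and the median change was -0.32 against 0.00 over all genes. The groups did not overlap in 14 lower (27.7% of all genes) and 6 higher members (16.9% of all genes). By family, 8 of 13 heavy chains were lower and 2 higher, 2 of 6 spoke genes were lower and 3 higher, 3 of 8 antigens were lower and 2 higher, and 1 of 3 tested tektins and 1 of 2 intermediate chains were lower. The controls of the line, Dnmt3l+/- and Dnmt3l+/+, differed in 0 of 31 members with edgeR (0.00651% of all genes were higher and 0% lower), with 1 higher and 0 lower at an unadjusted p under 0.05 and 0 by DESeq2.

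The heavy chains changed in both directions. Dnahc6 was near 0 in the controls (0.00992 to 0.0186 RPKM, with a median of 0.0155) and lay at 0.0597, 0.0728 and 0.100 RPKM in Dnmt3l-/- testis (log2 fold change 2.42 ± 0.24 SE, edgeR adjusted p = 7.6e-06). Dnahc2 ran the other way, with 0.880 to 1.31 RPKM, with a median of 1.09, in controls and 0.384, 0.387 and 0.453 RPKM in Dnmt3l-/- testis (log2 fold change -1.37 ± 0.12 SE, edgeR adjusted p = 3.7e-06). Neither gene overlapped between the groups. Dnahc1, an inner arm chain of sperm, was at 0.716 to 0.907 RPKM in controls and 0.416, 0.426 and 0.387 RPKM in Dnmt3l-/- testis, with a log2 fold change of -0.93 ± 0.11 (edgeR adjusted p = 2.5e-05). Dnahc14 was at 0.268 to 0.585 against 0.110, 0.147 and 0.138 RPKM (-1.63 ± 0.27, 0.00036). Dnahc10 was at 0.184 to 0.287 against 0.0989, 0.0960 and 0.144 RPKM (-1.08 ± 0.19, 0.00053), and Dnahc5 at 0.0340 to 0.0721 against 0.0125, 0.0201 and 0.00539 RPKM (-2.03 ± 0.36, 0.00059). The lowest estimate among called members was that of the spoke gene Rsph6a, at 0.0373 to 0.120 against 0.0206, 0 and 0.0357 RPKM, with a log2 fold change of -2.09 ± 0.61 (0.012). The genes named in this paragraph were all at low levels, below 1.5 RPKM in every library of this line. The Rsph6a estimate rested on 2, 0 and 4 reads in Dnmt3l-/- testis against 46 in the 6 controls. With Dnmt3l+/+ controls alone 12 members were lower, as Rsph6a, Dnahc11 and Spag1 no longer passed. With Dnmt3l+/- controls alone all 15 lower members still passed.

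Spag16, of the central apparatus, showed the firmest rise. It was at 0.228, 0.181 and 0.243 RPKM in Dnmt3l+/+, 0.246, 0.257 and 0.286 in Dnmt3l+/- and 0.689, 0.856 and 0.928 in Dnmt3l-/- testis (log2 fold change 1.81 ± 0.16 SE, edgeR adjusted p = 3.7e-06). Spag4 was at 0.368, 0.408 and 0.211 RPKM in Dnmt3l-/- against 0.732 to 1.09 RPKM in controls (log2 fold change -1.36 ± 0.23 SE, edgeR adjusted p = 0.00034). Tekt2 was at 0.949, 0.933 and 1.00 against 1.59 to 1.95 RPKM (log2 fold change -0.82 ± 0.13 SE, edgeR adjusted p = 0.00031). Both fell without overlap. Spag7 was at 38.1, 43.0 and 40.8 against 32.5 to 37.2 RPKM, a small rise (log2 fold change 0.25 ± 0.06 SE, edgeR adjusted p = 0.0039). The other tektins were low and uncalled in the main fit, which tested 3 of the 5 tektins. Without the filter on low counts Tekt3 was called lower. Tekt1 was at 0.252, 0.559 and 0.379 RPKM in Dnmt3l-/- and 0.435 to 0.833 in controls, and Tekt5 at 0.121, 0.0995 and 0.105 and 0.0869 to 0.216. Tekt4 was at 0.0159, 0.0732 and 0.0412 and 0.0342 to 0.133 RPKM, and Tekt3 at 0, 0.0128 and 0.0121 and 0.0150 to 0.108. Without replicate 3 of Dnmt3l-/-, 4 rather than 7 members were higher, as Dnahc7b, Rsph3b and Rsph9 no longer passed. When the 4 controls with Crisp1 were left out, a choice made after seeing the data, 3 members were higher (14.6% of all genes) and 14 lower (19.5% of all genes), and Spag7, Spag1, Dnahc7b, Rsph3b and Rsph9 were lost. This fit left out every Dnmt3l+/+ library and kept 2 Dnmt3l+/- controls. Crisp1, the control genotype and the smaller number of libraries therefore cannot be told apart in it. Germ cell markers summed to 134.7 to 164.6 RPKM in Dnmt3l-/- and 365 to 483 RPKM in control testis. Early meiosis markers summed to 26.2 to 35.9 against 68.2 to 130.0 RPKM. Their part in these changes was not tested.

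In the libraries labelled Miwi2-/-, 1 of 32 tested members was higher than in those labelled Miwi2+/- (0.725% of all genes tested) and 0 were lower with edgeR (0.506% of all genes). There were 2 and 2 at an unadjusted p under 0.05 and 0 and 0 by DESeq2. The median change was 0.05 against 0.01 over all genes. The member was Spag16, at 1.00 and 1.01 RPKM against 0.347 and 0.320 RPKM (log2 fold change 1.58 ± 0.17 SE, edgeR adjusted p = 0.00087). DESeq2 gave this gene no adjusted p. When replicate number was blocked, 5 members were higher and 3 lower. Leaving out replicate 1 of Miwi2-/- or replicate 2 of Miwi2+/- added Dnahc2 and Dnahc8 to the higher members, and leaving out replicate 2 of Miwi2-/- made Rsph1 lower. Each of these fits has 1 library on one side, which is assumed to vary like the 2 of the other side. Tektins were at 0.472 and 0.660 against 0.484 and 0.711 RPKM for Tekt1 and 2.07 and 2.36 against 2.05 and 2.34 for Tekt2. They were at 0.0911 and 0.0799 against 0.0133 and 0.128 RPKM for Tekt3, 0.0297 and 0.122 against 0.122 and 0.0437 for Tekt4 and 0.151 and 0.155 against 0.168 and 0.136 for Tekt5, and none was called. Epididymal markers summed to 12.9 to 13.6 RPKM in the libraries labelled Miwi2-/- and 5.88 to 6.00 in the others, and their part was not tested.

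The effects of the 2 mutations were set against each other at P10.5 in 1 fit of the Morc1 and Dnmt3l lines. The Morc1 effect was higher than the Dnmt3l effect in 1 of 34 members (9.45% of all genes) and lower in 3 (8.14% of all genes), with a median difference of 0.06 against -0.03 over all genes. Spag16 was at 0.376, 0.315 and 0.305 RPKM in Morc1tg/tg and 0.269, 0.249 and 0.197 RPKM in its controls, without overlap but not past the test (log2 fold change 0.47 ± 0.21 SE, edgeR adjusted p = 0.14). Its Morc1 effect minus its Dnmt3l effect was -1.39 ± 0.26 on the log2 scale (edgeR adjusted p = 0.0017). Dnahc6, at 0.0530, 0.0228 and 0.0311 against 0.0343, 0.0388 and 0.0445 RPKM in the Morc1 line, differed in effect by -2.61 ± 0.40 (edgeR adjusted p = 0.00038). Dnahc2, at 0.721, 0.602 and 0.519 against 0.660, 0.723 and 0.691 RPKM, differed by 1.16 ± 0.18 (0.00043). The stalk gene Rsph3a was the other member called (-0.59 ± 0.16, 0.02). The members of higher Morc1 effect numbered 2 without replicate 2 of Morc1tg/tg (adding Dnahc14) or the Morc1+/+ library (Dnahc1), and 3 without replicate 2 of Dnmt3l-/- (Dnahc5 and Dnahc12) or replicate 3 of Dnmt3l+/+ (Dnahc5 and Dnahc14).

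**Figure D5:**
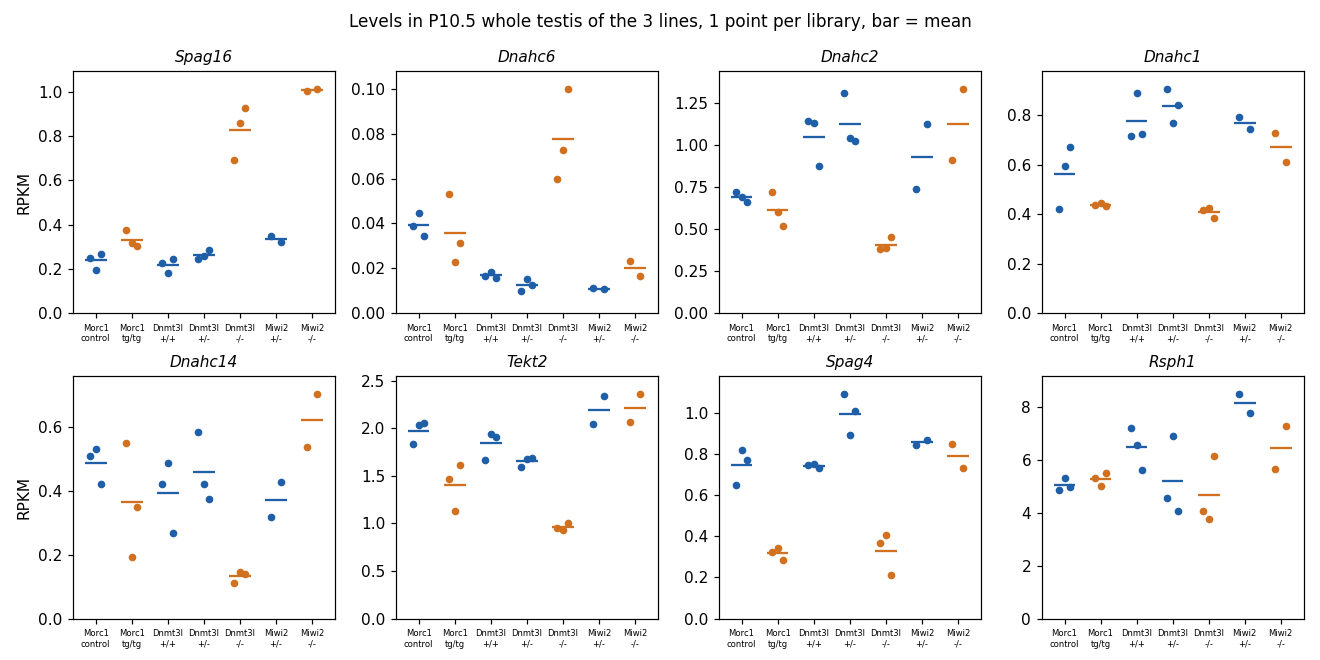
RPKM of 8 members (vertical axes) in P10.5 whole testis of the Morc1, Dnmt3l and Miwi2 lines (horizontal axes), with 1 point per library and a bar at each group mean, for controls (blue) and mutants (orange). Spag16 is highest in Dnmt3l-/- and in the libraries labelled Miwi2-/-, Dnahc6 is highest in Dnmt3l-/-, and Dnahc2, Dnahc1, Dnahc14, Tekt2 and Spag4 are low in Dnmt3l-/-.

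Other axoneme and flagellum genes were counted in the same way. Of a list of 35 such genes, which also takes in the fibrous sheath, intraflagellar transport and tubulin modifying enzymes, 34 were in the tables. In P14.5 Morc1tg/tg testis 25 of 31 tested were lower (20.1% of all genes) and 0 higher (14.8% of all genes), with a median of -1.56. Among them were Fsip2 of the fibrous sheath (log2 fold change -6.20 ± 0.44 SE, edgeR adjusted p = 7.7e-05), the light chain genes Dynlrb2 (-3.69 ± 0.49) and Dnali1 (-3.51 ± 0.37), the spoke gene Ropn1l (-2.31 ± 0.30) and Hydin of the central apparatus (-1.58 ± 0.20). With age in control testis 27 of 31 rose (29.6% of all genes) and 1 fell (27.9%), with a median of 1.74. In Morc1tg/tg testis 7 rose (20.6% of all genes) and 2 fell (23.3%). In control germ cells 0 of 33 rose (8.13% of all genes) and 8 fell (10.53%) from E16.5 to E18.5, with a median of -0.54, where 3 of the 46 genes rose and 1 fell. From E18.5 to P2.5, 17 of 33 fell (21% of all genes) and 2 rose (18.1%), with a median of -1.56. From P2.5 to P10.5, 4 rose (13.4% of all genes) and 4 fell (14.2%). Hydin stood at 12.3 and 14.1 RPKM at E16.5, 5.86 and 6.46 in E18.5 cells, 2.25, 2.39 and 2.41 at P2.5 and 0.651, 0.610, 0.593 and 0.756 at P10.5, highest in fetal cells (log2 fold change -1.58 ± 0.15 SE, edgeR adjusted p = 1.1e-06 around birth). In Dnmt3l-/- testis 12 of 30 were lower (29% of all genes) and 1, Meig1, was higher (24.9%).

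Transcription factors of ciliated and meiotic cells were counted from a list of 9. In P14.5 Morc1tg/tg testis 6 of 9 were lower (20.1% of all genes) and 0 higher (14.8%): Rfx4 (-4.48 ± 0.38 on the log2 scale), Rfx2 (-2.14 ± 0.19), Sox30 (-1.95 ± 0.15), Crem (-1.24 ± 0.22), Tcfl5 (-0.86 ± 0.10) and Mybl1, which encodes A-MYB (-0.67 ± 0.11). Rfx2, at 2.63, 2.19 and 2.46 RPKM in Morc1tg/tg and 10.52, 8.11 and 13.6 RPKM in Morc1tg/+ testis, was also lower at P10.5 in whole testis (-0.51 ± 0.13) and in sorted germ cells (-0.72 ± 0.17). Of the matched members with GTTGCC in a promoter, Tekt1, Spag6, Tekt4, Spag8, Dnahc7b, Dnahc10, Rsph3b and Spag16 were lower at P14.5, which was 8 of 10 tested, against 27 of 35 tested members in all. Tekt2 and Dnaic2 did not pass the test, and Odf3 and Odf3l1 did not pass the filter on low counts.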

How the data were processed

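The members and gene lists were chosen with earlier results of these data known. Per the labels and the study's methods, reads were trimmed, reads matching ribosomal RNA were dropped, and the rest were mapped to mm9 and kept where the location was unique. The authors deposited, for each library, raw gene counts made with HTSeq and RPKM values, which scale those counts to exon length and mapped reads. Versions of the upstream tools are not given in the sources used here. RPKM is set against all mapped reads, of which sorted libraries held 1.29 to 1.86 times as many per gene read as whole testis. Levels of sorted cells and whole testis are therefore only set side by side. This ratio also varied over that range among the sorted libraries, so RPKM differences between them, unlike the tests on counts, include it. Among whole testis libraries it ran from 0.98 to 1.08.

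The main test was edgeR 4.0.16's quasi-likelihood F test under R 4.3.3, with TMM factors and its filterByExpr function. P-values were adjusted over every gene that passed the filter (Benjamini-Hochberg), and a member was called when its adjusted p lay below 0.05. Standard errors were the log2 fold change divided by the root of its F statistic. Alternatives were DESeq2 1.42.0, RLE factors, no filter on low counts, other choices of controls, preliminary controls with the batch as a term, a replicate block, a single fit over all sorted libraries, and the omission of each library in turn. The code was tested on simulated data. Each library came from 1 mouse, and p-values measure the spread between mice. A step between stages or ages also holds any difference between their sorts or sequencing runs, which this spread does not cover.

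Members named with values in every library were, in each comparison of whole testis genotypes, in the age change of control testis and in the germ cell comparisons, those past the threshold, at most the 10 of smallest p, with the 5 tektins and the 5 members of highest mean RPKM in control germ cells at P10.5 and in control testis at P14.5. Others were named after their values were seen.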

Additional observations from a re-analysis of the deposited data

Results flagged for a closer look

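In the Dnmt3l line, the level of Dnahc7b in the 6 control testes had 1 library far from the others, replicate 1 of Dnmt3l+/+ at 1.21 RPKM, whose gap to the next library took 0.657 of the whole range. Of 33 values checked in this way 1 stood apart, and chance sets apart about 1 in 20.

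The Morc1 effect differed between the ages of whole testis in 16 members (interaction in edgeR, log2 fold change at P14.5 minus that at P10.5). The differences were -1.61 for Dnahc1, -2.30 for Dnahc12, -1.94 for Dnahc17, -1.68 for Dnahc7b and -1.84 for Dnahc8 among the heavy chains. They were -2.09 for Dnaic1, -2.85 for Tekt1 and -3.12 for Rsph1. Among the outer dense fibre genes they were -0.36 for Odf2, -0.66 for Odf2l and -7.57 for Odf4, and among the antigens -0.66 for Spag5, -4.02 for Spag6, -0.98 for Spag8, -1.51 for Spag16 and -5.47 for Spag17.

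The effect of Morc1 differed from that of Dnmt3l at P10.5 in 4 members (interaction in edgeR, Morc1 minus Dnmt3l), by 1.16 for Dnahc2, -2.61 for Dnahc6, -0.59 for Rsph3a and -1.39 for Spag16.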

How the results depend on the processing

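Directions of single members under the alternative runs were checked for a subset of members only. Of these checks, 1158 gave the same result and 61 a weaker one, with no reversal among them. Directions of the other members were not checked. Without the filter on low counts, 2 members were higher at E16.5 in germ cells in place of 1 (adding Dnahc11), 1 at E18.5 in place of 0 (Dnahc7b), 1 rose from E18.5 to P2.5 in place of 2, and 0 fell with age in Morc1tg/tg testis in place of 1. DESeq2 made Dnahc7b higher at E18.5 (1 member), called 0 members higher in the libraries labelled Miwi2-/- and 2 of higher Morc1 than Dnmt3l effect. In 1 fit over all sorted libraries 0 members were higher at E16.5, 1 was higher at E18.5 and 0 were lower at P10.5. With the 4 Dnmt3l controls that held Crisp1 left out, 2 Dnmt3l+/- controls remained and 3 members were higher.

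In no comparison of 3 or more same-numbered pairs did deviations correlate above 0.1 in every pair (0.35, 0.04 and -0.11 at P14.5), so numbers were not taken to pair libraries. In the Miwi2 line, with 2 libraries per group, the same-numbered pairs must share a single value, which was 0.32. Blocking on the number, 2 members were higher at E16.5, 1 at E18.5, and 5 higher and 3 lower in the libraries labelled Miwi2-/-, and other counts stayed within 1.5 times. The cause of these shifts was not tested.

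Leaving out single libraries gave these ranges of members called. In germ cells of Morc1tg/tg mice they were 0 to 1 higher at E18.5, 0 to 1 lower at P2.5 and 3 to 5 lower at P10.5. In whole testis of Morc1tg/tg mice they were 0 to 1 higher and 2 to 5 lower at P10.5, and 0 to 1 higher and 23 to 27 lower at P14.5. In Dnmt3l-/- testis 4 to 7 were higher and 13 to 16 lower, and in the libraries labelled Miwi2-/- 1 to 3 higher and 0 to 1 lower. With age, 26 to 28 rose and 1 fell in control testis, and 6 to 15 rose and 0 to 1 fell in Morc1tg/tg testis. The Morc1 effect was lower at P14.5 than at P10.5 in 12 to 19 members, and it was higher than the Dnmt3l effect in 1 to 3 and lower in 2 to 4. In control germ cells, 2 to 4 rose and 0 to 3 fell from E16.5 to E18.5, 1 to 3 rose and 15 to 17 fell from E18.5 to P2.5, and 2 to 7 rose and 4 to 8 fell from P2.5 to P10.5. Depth limits low members such as Tekt3 and Tekt4, which had libraries without a read in sorted cells and in whole testis. Where 1 of 2 libraries was left out, the other was assumed to vary like the opposite group.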

Other observations

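Some genes of the wider axoneme list changed in P10.5 Morc1tg/tg samples. In whole testis Ccdc39, a ruler protein of the doublet, was higher (0.31 ± 0.09 on the log2 scale), and Tsga10 (-0.67 ± 0.10) and the tubulin modifying enzyme gene Ttll5 (-0.22 ± 0.07) were lower, of 27 tested (6.08% of all genes were higher and 9.26% lower). In sorted germ cells Ttll1 (0.44 ± 0.13) and Gas8 (0.39 ± 0.13) were higher, of 27 tested (6.43% of all genes). Mns1, a protein of the doublet lumen, was at 102 and 123 RPKM in control germ cells at E16.5 and 19.7 and 27.4 at E18.5. It was at 42.9, 26.1 and 41.4 RPKM at P2.5 and 28.4, 33.1, 26.1 and 25.1 RPKM at P10.5.

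In the mm9 genome, 10 of the 46 genes are on chromosome 11, 6 on chromosome 17 and 4 on chromosome 15. Rsph1 is at chr17:31391964-31414301, Tekt1 at chr11:72158224-72175944, Spag6 at chr16:16753109-16829549, Spag16 at chr1:69873562-70771706 and Dnahc6 at chr6:72967600-73171645.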
